A study of Homo sapiens with 16 samples.

Results

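The peak lists of H3K27ac made with the 2 shRNAs against *MBD3*, shMBD3.26 and shMBD3.232, were compared with each other to describe how far they agree. A2780 cells, an established cell line from an ovarian endometrioid adenocarcinoma that is sensitive to cisplatin (cPt), carried 1 of the 2 shRNAs in a doxycycline-inducible vector with GFP. The knockdown was induced for 1 week, GFP-positive cells were sorted, and mononucleosomes with a *D. melanogaster* spike-in of 5% were used for ChIP-seq. There was 1 library per shRNA, and both libraries shared the cell line, the vector, the sorting and the antibody target, so that the pair is the nearest thing to a replicate among the 8 peak lists. Beside them stood lists of H3K27ac in untransduced A2780, cPt-resistant A2780cis, CAOV4 and CAOV4cis, and of H3K9ac in A2780 and A2780cis. CAOV4cis is a derivative of CAOV4 made by rising doses of cPt. Both A2780cis and CAOV4cis are kept in medium with cPt. Cells with a control shRNA and the level of MBD3 after knockdown were not analysed here. The 8 lists held 175365 autosomal peaks, of which 23270 came from shMBD3.26 and 18936 from shMBD3.232. These 42206 peaks merged into 26110 regions where they shared at least 1 bp, and all of these regions are accounted for below.

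MBD3 is a core subunit of the NuRD complex, which joins a nucleosome remodeler with histone deacetylases and thereby acts on acetylation at enhancers and promoters. H3K27ac marks active enhancers and promoters, where it can form narrow peaks or broad domains. An shRNA is processed to a short guide that lowers the mRNA of its target, and unrelated guides against the same mRNA are used side by side because they share the target but not their other pairings. Both guides are shown as the study lists them, since they are all that was designed to differ between the libraries. Capitals mark bases 2 to 8 of the listed sequence, which are the seed where it is written as the guide strand.
shMBD3.26: aACAAGGTcaagagcgacccgc
shMBD3.232: tTGCTCATcagcatcttgcccg
Each guide has 22 bases, of which 13 are G or C in shMBD3.26 and 12 in shMBD3.232. They have the same base at 7 positions, share no run longer than 4 bases, and differ in the stretch in capitals. No *MBD3* transcript was used here, so it was not examined where they match and whether both are listed as the guide strand.

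Start and end of each peak in both lists fall on multiples of 200 bp, and neighboring peaks are separated by 1000 bp or more. The score of each peak is 0, so that the lists show where acetylation was called and over what width, but not how strong it was. How many reads stand behind a peak is not known. No list held a peak on chromosomes 20 to 22, and on chromosomes 1 to 12 the last peak of any list lay short of the end of the chromosome, at 197.2 Mb on chromosome 1 and 181.1 Mb on chromosome 2 for instance. Values per chromosome and over the autosomes leave these parts out. With 1 library per shRNA, no difference between the shRNAs has a test, and an effect of a guide and a difference between libraries cannot be told apart. Shares of regions or peaks stand with their 95% Wilson interval, for counting error alone.

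By the base pairs shared as percent of the union, the lists made with both shRNAs agreed more than any other of the 28 pairs of lists. The covered length was 76.5 Mb for shMBD3.26 and 78.9 Mb for shMBD3.232, and 58.6 Mb were covered with both. This shared length was 60.5% of the 96.8 Mb covered with either. It made up 76.5% of the length covered with shMBD3.26 and 74.2% of that covered with shMBD3.232. The longer list of untransduced A2780, at 96.7 Mb, covered more of each shRNA list, namely 81.3% of shMBD3.26 and 80.7% of shMBD3.232. Untransduced A2780 shared 56.0% of the union with shMBD3.26 and 56.9% with shMBD3.232. The agreement of the shRNA lists was 4.43 and 3.55 percentage points above these values. Between A2780 and A2780cis the same measure was 44.5%, between CAOV4 and CAOV4cis it was 45.0%, and between A2780 and CAOV4 it was 22.2%.

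**Figure D1:**
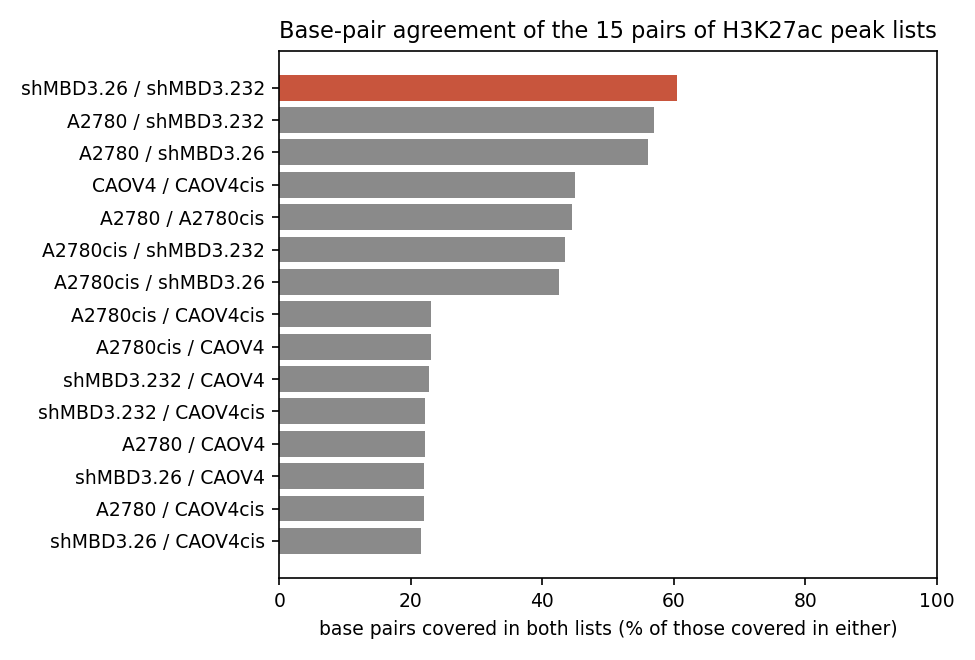
Base pairs covered in both of 2 lists, as percent of those covered in either, for the 15 pairs of H3K27ac lists on the autosomes. Each bar is 1 pair, the pair of shRNAs is in red at 60.5%, and the next bars are those of A2780 with each shRNA at 56.9% and 56.0%.

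Length covered with both shRNAs was mostly covered in untransduced A2780 too, which the merging did not use. Of the 58.6 Mb shared by the shRNAs, 91.5% was also covered in A2780 and 5.01 Mb was not. Length covered with 1 shRNA only was covered in A2780 about as often for either guide, namely 48.2% of 18.0 Mb with shMBD3.26 and 49.8% of 20.3 Mb with shMBD3.232. In the other direction, 24.3 Mb or 25.2% of the A2780 list was covered with neither shRNA. H3K9ac in A2780, a mark of active promoters and enhancers from another antibody, covered 59.8% of the shared length, 19.9% of that with shMBD3.26 only and 18.3% of that with shMBD3.232 only. In CAOV4, another ovarian cancer line, H3K27ac covered 41.8%, 17.6% and 20.8% of these lengths.

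A peak was listed with both shRNAs in 13960 of the 26110 merged regions, which is 53.5% (52.9% to 54.1%). Another 7859 regions had a peak only with shMBD3.26, which is 30.1% of all regions (29.5% to 30.7%). Only with shMBD3.232, 4291 regions were listed, which is 16.4% (16.0% to 16.9%). The regions of a single shRNA were narrow, with medians of 800 bp with shMBD3.26 and 1000 bp with shMBD3.232, against 4200 bp for shared regions. A shared region spans the peaks of both lists and is wider by construction. The shared regions held 88.8% of the length covered with shMBD3.26 and 92.3% of that covered with shMBD3.232.

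The excess of regions with shMBD3.26 alone changed with the peaks that were used. The shMBD3.26 list was longer and held 2033 peaks of a single grid step of 200 bp, against 691 with shMBD3.232. When only the 18936 widest peaks of each list were merged, 4289 regions had shMBD3.26 alone and 4835 had shMBD3.232 alone, so that the order turned. With peaks over 2 kb in both lists, these numbers were 2059 and 2164. With the wider 50% of each list, which are 11635 and 9468 peaks, they were 3072 and 1317, so that the excess remained.

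Agreement rose steeply with width. Among the 2437 merged regions of 200 bp, 17 were shared, which is 0.698% (0.436% to 1.11%). Such a region is shared only where both lists have the same single grid step. A wider partner moves it to a wider class, so the low shares of narrow classes are partly fixed by the classing. From 400 to 600 bp the share was 5.64%, from 800 to 1000 bp it was 18.7%, and from 1.2 to 2 kb it was 39.0%. It reached 78.2% from 2.2 to 5 kb and 95.3% from 5.2 to 10 kb. Between 10.2 and 20 kb, 1243 of 1259 regions were shared, and 15 of the rest belonged to shMBD3.26. All 446 regions over 20 kb were shared, and for 0 of 446 the Wilson interval of each shRNA alone reaches up to 0.854%. In the 2.2 to 5 kb class the lists contributed about alike, with 863 regions for shMBD3.26 alone and 821 for shMBD3.232 alone.

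**Figure D2:**
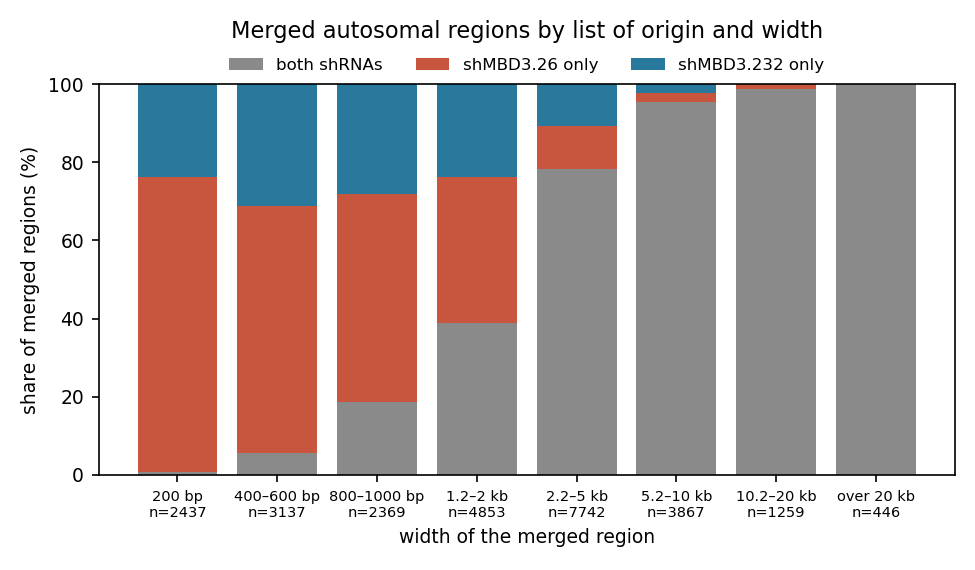
Share of merged autosomal regions (y axis, percent) that were shared or had a peak with 1 shRNA alone, by the width of the merged region (x axis), with the number of regions under each bar. The shared part grows from 0.698% of the regions of 200 bp to 100% of those over 20 kb. A wider partner moves a region to a wider class, so the narrow classes are low partly by construction.

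The same order was seen for the peaks sorted by their own width. With shMBD3.26, 9.44% of peaks of 200 bp had a partner with shMBD3.232 (8.25% to 10.8%), and with shMBD3.232 the share was 16.2% (13.6% to 19.1%). From 2.2 to 5 kb the shares were 88.7% and 88.2%. A wide peak can meet a partner more easily than a narrow one, so the base pair at the center of each peak was looked up as well, for which width does not count. It was covered in the other list for 23.2% of the shMBD3.26 peaks of 400 to 600 bp, 55.7% of those of 1.2 to 2 kb and 92.6% of those of 5.2 to 10 kb. For shMBD3.232 the values were 34.7%, 63.1% and 86.4%. Over all peaks, the center was covered for 61.7% of the shMBD3.26 list and 69.8% of the shMBD3.232 list.

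Most of the length that separated the lists lay inside regions they shared, at edges or in gaps between peaks. Of the 18.0 Mb covered with shMBD3.26 only, 9.39 Mb or 52.3% lay within shared regions. Of the 20.3 Mb covered with shMBD3.232 only, 14.3 Mb or 70.3% did. The remainder, 8.57 Mb and 6.04 Mb, belonged to regions of a single shRNA.

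In the 13960 shared regions, the covered width was nearly the same at the median. It was 3400 bp with either shRNA, and the log2 ratio of shMBD3.232 over shMBD3.26 had a median of 0.04 with quartiles of -0.28 and 0.42. The width was larger with shMBD3.232 in 7090 regions or 50.8%, larger with shMBD3.26 in 5717 or 41.0%, and equal in 1153 or 8.26%. At least 2-fold more was covered with shMBD3.232 in 1251 regions, which is 8.96% of the shared regions. At least 2-fold more with shMBD3.26 was covered in 917 regions, which is 6.57%. The widths lay within 200 bp of each other in 22.9% of regions and within 1 kb in 60.7%. When equal numbers of the widest peaks were used, the median log2 ratio was 0.

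**Figure D3:**
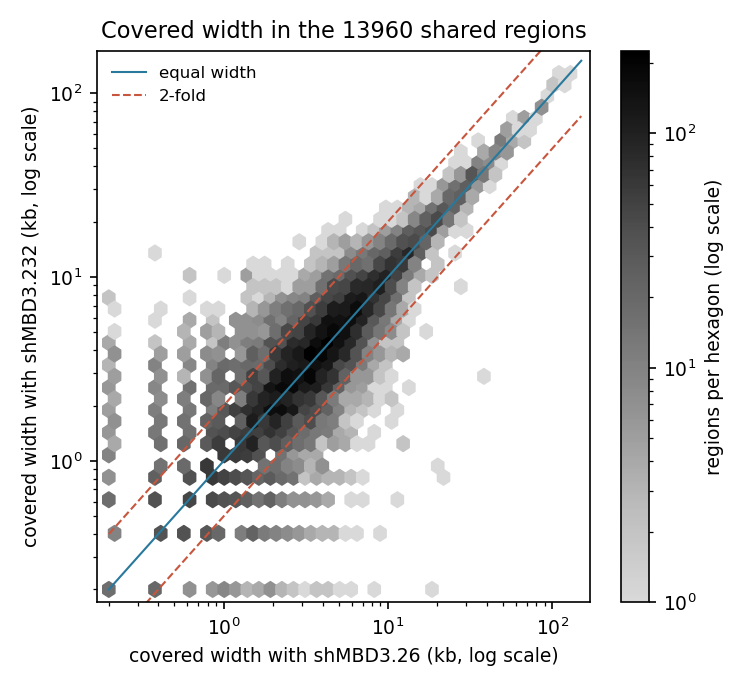
Covered width in the shared regions with shMBD3.26 (x axis) and shMBD3.232 (y axis), both in kb on a log scale, with darker hexagons for more regions. Most regions lie between the dashed lines of a 2-fold difference, and the widest regions lie closest to the line of equal width.

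Broad domains leaned towards shMBD3.232. In regions of 1.2 to 2 kb, the width was larger with shMBD3.232 in 39.3% and with shMBD3.26 in 46.3%. For regions of 5.2 to 10 kb the shares were 58.0% and 38.1%, with a median log2 ratio of 0.12. From 10.2 to 20 kb they were 66.9% and 29.8%, with a median covered width of 10800 bp with shMBD3.26 and 12000 bp with shMBD3.232. Over 20 kb they were 68.8% and 28.9%, but the ratio itself was small, at a median of 0.07 on the log2 scale. In these 446 broadest regions, 3 differed at least 2-fold towards shMBD3.232 and 4 towards shMBD3.26. Peaks over 10 kb made up 25.6% of the covered length with shMBD3.26 and 32.7% with shMBD3.232.

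In 12345 shared regions, or 88.4%, each list had 1 peak, so that both edges could be set against each other. An edge lay at the same position in 17.6% of cases, within 200 bp in 41.6% and within 600 bp in 67.0%. The median distance was 400 bp, which is 2 grid steps. The shMBD3.232 peak reached further out on both sides in 20.5% of these regions and the shMBD3.26 peak in 15.8%. In 32.0% the peak was moved, with 1 edge further out and the other further in. Both edges were identical in 435 regions, or 3.52%. Regions in which the number of peaks differed were more often split with shMBD3.26. A single shMBD3.232 peak faced at least 2 peaks of shMBD3.26 in 1002 regions, and the converse was found in 448.

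Regions of a single shRNA differed in their distance to the other list. The shMBD3.26 list has 23270 peaks and the shMBD3.232 list 18936, so distances to the former are shorter partly by construction. The chromosome 6 segment described below was included. The nearest shMBD3.232 peak was at a median of 12.4 kb from the regions with shMBD3.26 alone, and 30.8% (29.8% to 31.8%) had one within 5 kb. From the regions with shMBD3.232 alone, the nearest shMBD3.26 peak was at a median of 5.2 kb, and 49.7% (48.2% to 51.2%) had one within 5 kb. More than 100 kb of distance was found for 11.7% and 1.70% of them.

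Regions of a single shRNA were looked up in the other 6 lists, which came from untransduced cells. In A2780, 37.0% (35.9% to 38.1%) of the regions with shMBD3.26 alone and 43.0% (41.5% to 44.4%) of those with shMBD3.232 alone had an H3K27ac peak, against 95.2% (94.8% to 95.5%) of shared regions. None of the other 6 lists had a peak in 42.0% of the former, in 32.6% of the latter and in 1.81% of shared regions. A peak in all 6 was found in 47 and 27 regions of a single shRNA, and in 5343 shared regions. Within width classes the difference between the shRNAs varied. Up to 1 kb lay 5081 of the regions with shMBD3.26 alone and 2225 of those with shMBD3.232 alone. An A2780 peak was found in 26.6% and 31.4% of these, and none of the 6 lists had a peak in 51.0% and 42.2%. From 1.2 to 2 kb, an A2780 peak was found in 49.6% and 48.5% of the regions with shMBD3.26 and shMBD3.232 alone, and in 88.2% of shared regions. From 2.2 to 5 kb, the shares were 66.6%, 62.9% and 96.1%. Over 5 kb, the shares were 75.2%, 75.3% and 98.7%. For H3K27ac in CAOV4, 10.1% (5.73% to 17.2%) of the 109 regions over 5 kb with shMBD3.26 alone had a peak. For the 89 with shMBD3.232 alone it was 28.1% (19.8% to 38.2%). Of the 109 regions, 24 lay in the chromosome 6 segment described below. For H3K9ac at this width the order was the other way, at 39.4% and 30.3% in A2780 and 23.9% and 13.5% in A2780cis. Over all widths the CAOV4 shares were 13.7% and 18.9%.

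By chromosome, the share of regions with a peak with both shRNAs was even, from 50.4% (47.4% to 53.4%) on chromosome 4 to 60.6% (58.6% to 62.6%) on chromosome 19, with a median of 52.7% over 19 chromosomes. All 19 had more regions with shMBD3.26 alone than with shMBD3.232 alone. Over all autosomes this excess turned with equal numbers of the widest peaks, and it was not recounted by chromosome in that way. With all peaks, 7859 of the 12150 regions of a single shRNA belonged to shMBD3.26. The balance differed, however. Of the regions of a single shRNA, 52.6% (49.4% to 55.9%) belonged to shMBD3.26 on chromosome 19 and 56.1% on chromosome 16. On chromosome 13 it was 75.0% (69.8% to 79.6%) and on chromosome 6 it was 78.3% (74.9% to 81.4%). The covered length was 1.14 times as large with shMBD3.232 on both chromosome 19 and chromosome 16, and 0.826 times as large on chromosome 6. Across the 19 chromosomes, the log2 ratio of covered length went with the length covered per Mb in untransduced A2780 (Pearson's r = 0.63, Spearman's rho = 0.89). All points share the same 2 shRNA libraries and their depth.

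**Figure D4:**
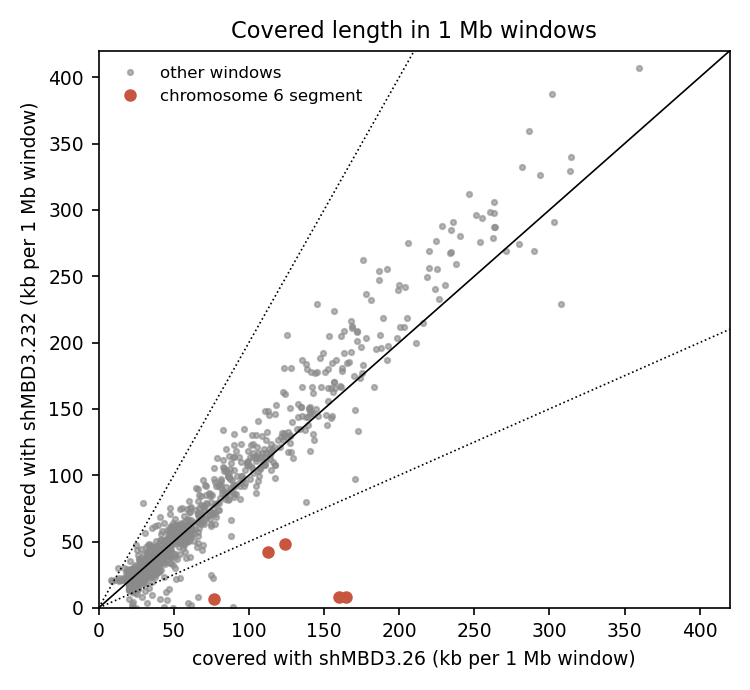
Length covered in windows of 1 Mb (kb) with shMBD3.26 (x axis) and shMBD3.232 (y axis), for the 998 windows with at least 20 kb covered with either. The solid line marks equal length and the dotted lines a 2-fold difference, and the windows of a segment of chromosome 6 are shown in red far below the line.

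In windows of 1 Mb, the same gradient was seen along the chromosomes. Windows were ranked into 10 deciles by the length covered in untransduced A2780, a list that enters neither shRNA list, and the chromosome 6 segment described below was left out. In the lowest decile of windows, shMBD3.232 covered 190.8 kb and shMBD3.26 covered 269.6 kb, a ratio of 0.708. The ratio was 0.869 in the third decile, 0.960 in the sixth and 1.04 in the ninth. In the highest decile, 34478 kb were covered with shMBD3.232 and 31112 kb with shMBD3.26, a ratio of 1.11, and 144 of 181 windows had more with shMBD3.232. Ranked by H3K9ac in A2780, the lowest and highest deciles had ratios of 0.892 and 1.10, and ranked by H3K27ac in CAOV4, 0.981 and 1.12. With peaks over 2 kb only, an alternative chosen after seeing the data, the log2 ratios of these deciles were -0.38 and 0.19, against -0.50 and 0.15 with all peaks.

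The regions followed the windows they lay in. Over all windows without the chromosome 6 segment, 7709 regions were listed with shMBD3.26 alone and 4290 with shMBD3.232 alone. Where A2780 peaks covered under 20 kb of the window, 81.0% (78.8% to 82.9%) of the regions of a single shRNA belonged to shMBD3.26. Where they covered 200 kb or more, 51.3% (49.2% to 53.4%) did. The shared regions of the former windows were wider with shMBD3.232 in 39.6% and with shMBD3.26 in 48.2%, and those of the latter in 59.3% and 34.4%. The share of regions with a peak with both shRNAs changed little, from 52.4% to 56.7%.

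The windows with the largest excess in kb for shMBD3.232 were densely acetylated ones. A difference in kb can be large only where much length is covered, so this ranking favors such windows. On chromosome 19 between 10 and 11 Mb, shMBD3.26 covered 175.6 kb, shMBD3.232 covered 262.6 kb and A2780 covered 281 kb. Between 1 and 2 Mb of the same chromosome, the lengths were 302, 387.4 and 404 kb, and on chromosome 16 between 67 and 68 Mb they were 145, 229 and 227 kb.

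Differences of at least 2-fold between windows went mostly one way. Of the 998 windows with at least 20 kb with either shRNA, 32 or 3.21% had at most 0.5 times as much with shMBD3.232, and 4 or 0.401% had at most 0.5 times as much with shMBD3.26. In the latter 4, A2780 covered 2.8 kb, 4.2 kb, 22 kb and 32.8 kb. Of the 32, 5 touched a single segment of chromosome 6. Among the other 27, A2780 had at least 20 kb in 20 windows, and at least as much as shMBD3.26 in 19.

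Several of these windows had less covered with shMBD3.26 than in A2780 and next to nothing with shMBD3.232. Only the total length per window was compared, not whether the peaks overlap. On chromosome 1 between 102 and 103 Mb, peaks covered 89.6 kb with shMBD3.26 and 0.6 kb with shMBD3.232, beside 172.6 kb in A2780, 240.2 kb in A2780cis and none in CAOV4. On chromosome 12 between 47 and 48 Mb, 49.2 kb were covered with shMBD3.26 and none with shMBD3.232, beside 143.4 kb in A2780, 179.4 kb in A2780cis and 47.2 kb in CAOV4. In both windows, A2780 and A2780cis each had more covered than shMBD3.26.

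In other such windows, nothing or nearly nothing was covered in A2780cis. On chromosome 9 between 81 and 82 Mb, 61.6 kb were covered with shMBD3.26, 1.8 kb with shMBD3.232, 124 kb in A2780 and 0.4 kb in A2780cis. On chromosome 3 between 82 and 83 Mb the lengths were 65.8, 7.8, 94 and 0 kb. On chromosome 4 between 27 and 28 Mb they were 22.6, 0, 111.2 and 0 kb. On chromosome 13 between 67 and 68 Mb, by contrast, shMBD3.26 stood alone with 45.2 kb, against 6 kb with shMBD3.232, 6.2 kb in A2780 and 0 kb in A2780cis.

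A segment on the short arm of chromosome 6 stood apart from the rest of the genome. It was found after seeing the data as the longest stretch of windows of 100 kb with at least 5 kb with shMBD3.26 and at most 0.5 times as much with shMBD3.232, joined over gaps of less than 1.5 Mb. It runs from 28500001 to 33700000, counted from 1, over 5.2 Mb. The major histocompatibility complex, the gene cluster for antigen presentation, is known to lie on this arm, but it was not placed here with an annotation of GRCh37.

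With shMBD3.26, 181 peaks covered 609.8 kb of this segment, or 11.7%. With shMBD3.232, 36 peaks covered 73.2 kb, or 1.41%. The other lists were near the latter. H3K27ac covered 71.2 kb in A2780, 114.8 kb in A2780cis, 38.6 kb in CAOV4 and 35.8 kb in CAOV4cis, and H3K9ac covered 13.2 kb in A2780 and 22.4 kb in A2780cis. The list with shMBD3.26 was thus the single list of 8 in which the segment was covered like its surroundings. In the 5.2 Mb before it, shMBD3.26 covered 573 kb, shMBD3.232 covered 494.2 kb and A2780 covered 662.2 kb, and in the 5.2 Mb after it 421.6, 429.4 and 533.8 kb. What sets this list apart here was not tested. Whether the reads of this library were aligned to the same reference sequences and filtered in the same way as the others is not given in the sources used here, so its values in the segment may not be comparable with those of the other lists.

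**Figure D5:**
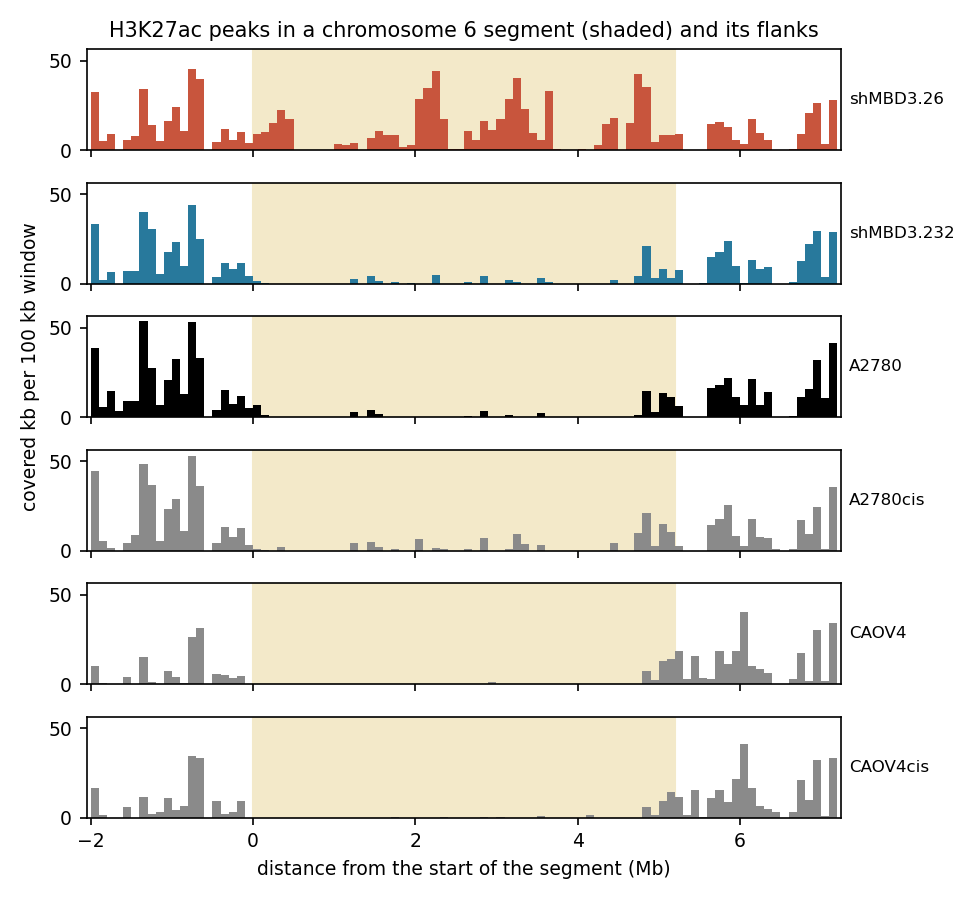
Length covered by H3K27ac peaks (y axis, kb per window of 100 kb) by distance from the start of the chromosome 6 segment (x axis, Mb), 1 panel per list, with the segment of 5.2 Mb shaded. Peaks fill the shaded part with shMBD3.26 (609.8 kb) and are sparse there with shMBD3.232 (73.2 kb) and in A2780 (71.2 kb), while all panels have peaks on both flanks.

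This segment held 182 merged regions, of which 150 were listed only with shMBD3.26, 1 only with shMBD3.232 and 31 with both. It contributed 24 of the 109 regions over 5 kb that were listed only with shMBD3.26, whereas 89 regions of that width were listed only with shMBD3.232. Without it, chromosome 6 lay within the range of the other chromosomes, with 56.6% of its regions shared and a ratio of covered length of 0.954. It still had 331 regions with shMBD3.26 alone and 132 with shMBD3.232 alone. Over the listed autosomes without the segment, 53.7% of regions and 60.8% of the union were shared.

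Among the regions of a single shRNA, the widest are named with their positions, on GRCh37 (hg19) per the submitters' processing notes. Starts are counted from 1 here, so each is 1 bp above the start in the lists. The 3 widest with shMBD3.26 alone had a counterpart in A2780 in 2 cases. On chromosome 1, a region from 102311201 to 102331000 was covered over 19.8 kb with shMBD3.26, and over the same 19.8 kb in both A2780 and A2780cis. On chromosome 9, 17.6 kb from 81208801 to 81226400 were covered with shMBD3.26 and in A2780 over the whole length, but not in A2780cis or CAOV4. On chromosome 6, 14.8 kb from 30645801 to 30660600 were listed with shMBD3.26 and in none of the other 7 lists, and this region lies within the segment above.

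The 3 widest regions with shMBD3.232 alone were narrower, and 1 of them had a counterpart of more than 1.2 kb in another list. A region of 12.2 kb on chromosome 12 from 31454001 to 31466200 had 0.6 kb covered in A2780 and nothing in the other 5 lists. On chromosome 2, 9.2 kb from 67180601 to 67189800 had 1 kb covered in A2780 and nothing in the other 5 lists. On chromosome 17, 8.8 kb from 27598401 to 27607200 had 0.6 kb covered in A2780, 5 kb in A2780cis and 1.2 kb in CAOV4cis.

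The widest shared regions were domains of over 100 kb that both lists gave almost alike. On chromosome 2 from 172846001 to 172975200, 129 kb were covered with shMBD3.26 and 127.8 kb with shMBD3.232, beside 129 kb in A2780 and 128 kb in A2780cis. A domain on chromosome 9 from 116245201 to 116366800 was covered over 113.6 kb in 7 peaks with shMBD3.26 and over 118.8 kb in 3 peaks with shMBD3.232, beside 109.4 kb in A2780 and 14 kb in A2780cis. On chromosome 12 from 90308201 to 90427800, 116.8 kb and 119.6 kb were covered with the shRNAs and 104 kb in A2780, while A2780cis had no peak. Domains that set A2780 apart from A2780cis were thus present with both shRNAs in 2 of these 3 cases.

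Among the 5359 shared regions with at least 5 kb in the wider list, the largest ratios came from peaks of 1 or a few grid steps facing a wide peak. Towards shMBD3.26, a region on chromosome 1 from 102364401 to 102381600 was covered over 17.2 kb with shMBD3.26 and 0.2 kb with shMBD3.232, and over 17.2 kb in A2780 and A2780cis. The next were 8.4 kb against 0.2 kb on chromosome 3 from 75687801 to 75696200, with 2.6 kb in A2780. On chromosome 6, within the segment above, 23 kb faced 0.8 kb from 32143001 to 32166000, with none in the other 6 lists. Towards shMBD3.232, 8.2 kb faced 0.2 kb on chromosome 9 from 37451201 to 37459400, with 1.6 kb in A2780. On chromosome 1, 7.6 kb faced 0.2 kb from 22387001 to 22394600, with none in A2780, and 13.8 kb faced 0.4 kb from 169908001 to 169921800, with 1.4 kb in A2780.

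In 11 windows that the study drew around named genes, both lists could be read side by side. The study shows its tracks as examples of common or changed H3K27ac, taken from these same libraries. What the lists show in these windows is thus partly set by that choice. At broad domains of A2780 the shRNA lists agreed. In the window of *SLC66A1L*, 44 kb were covered with shMBD3.26, 44.8 kb with shMBD3.232 and 44.2 kb in A2780, with 41.8 kb shared by the shRNAs. From *MIR29A*, the gene of a microRNA, to *LINC-PINT*, a long noncoding RNA, 138.8 kb, 159.3 kb and 160.5 kb were covered, with 82.8% of the union of the shRNAs shared. Around *SDC2*, which encodes a heparan sulfate proteoglycan of the cell surface, it was 14.4 kb and 11.8 kb with the shRNAs and 22.2 kb in A2780. From *TUT1* to *GANAB*, 24.8 kb, 29.8 kb and 32.4 kb were covered, and 80.8% of the union of the shRNAs was shared.

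In 6 windows, A2780cis had a domain and A2780 and both shRNA lists held little of it, a pattern that the choice of views favors. The shRNA lists shared 22.4% of their union around *RAD51B* and nothing in the other windows, in 3 of which shMBD3.232 had no peak at all. *JAK1*, a kinase of cytokine signaling, had 0.8 kb with shMBD3.26 and none with shMBD3.232, beside 1.2 kb in A2780 and 38 kb in A2780cis. *FGF10*, a growth factor, had 0.2 kb with shMBD3.26, none with shMBD3.232 and none in A2780, beside 84.8 kb in A2780cis. *LINC00871* had 1 kb with shMBD3.26 and none with shMBD3.232. Around *RAD51B*, which acts in homologous recombination, shMBD3.26 covered 11.6 kb in 7 peaks and shMBD3.232 covered 2.6 kb in 3 peaks, beside 9.8 kb in A2780 and 235.8 kb in A2780cis.

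In 2 of these 6 windows, shMBD3.232 covered more than shMBD3.26 and the peaks did not overlap. In that of *CTNNA3*, an alpha-catenin of cell junctions, 0.4 kb were covered with shMBD3.26, 5.2 kb with shMBD3.232, 0.2 kb in A2780 and 30.2 kb in A2780cis. In that of *TBC1D5*, a regulator of membrane traffic, 0.6 kb, 3.2 kb, 2 kb and 12.6 kb were covered. At *ZNF841*, a zinc finger gene, both shRNAs gave the same 1.4 kb.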

How the data were processed

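ChIP-seq libraries of H3K27ac came from A2780 cells with shMBD3.26 or shMBD3.232, 1 for each shRNA. As the methods of the study state, the authors used Bowtie2 for alignment, an R script of their own for quantile normalization and MACS2 for peaks, and the submitters' processing notes name GRCh37 (hg19). Versions are not given in the sources used here. The main methods mention neither the 200 bp grid nor the spacing of at least 1000 bp that all 8 lists have on the autosomes. Whether the deposited lists are the MACS2 peaks themselves was not tested. The deposited lists give the start and end of each peak and a score of 0 in every row, which was not used. Peaks were called per sample. Depth is unknown.

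Autosomal peaks sharing at least 1 bp were merged, and each region was classed by its lists of origin. Covered width is the summed length of the peaks of a list in a region. The regions named are the 3 widest of each class and the 3 shared regions with the largest width ratio in each direction, among those with at least 5 kb in the wider list. Gene windows were read from the views drawn by the study. Members and lists were chosen with earlier results of these data known. The merging was tested on altered copies of the shMBD3.26 list, with peaks dropped and widened. In these copies no neighboring peaks joined, so the merging of several peaks into a region was not tested. Python 3.11.15, numpy 2.4.6, pandas 2.3.3, SciPy 1.17.1 and matplotlib 3.10.9 were used.

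Distances to TSS, gene lists and cell type markers need a GRCh37 annotation and were left out. Guide sequences come from the study's supplementary table.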

Additional observations from a re-analysis of the deposited data

How the results depend on the processing

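The alternatives changed the share of regions with a peak with both shRNAs more than the base-pair agreement. The share of 53.5% became 52.5% with an overlap of 50% of the shorter peak, 63.9% with peaks no more than 5 kb apart, 67.8% with peaks over 2 kb, 64.2% with the wider 50% of each list and 59.5% with the same number of widest peaks. Regions with shMBD3.26 alone fell from 7859 to 4832 with peaks no more than 5 kb apart, 2059 with peaks over 2 kb, 3072 with the wider 50% and 4289 with equal numbers. Those with shMBD3.232 alone went from 4291 to 1766, 2164 and 1317 under the first 3 of these. The shared part of the union was 61.4% with peaks over 2 kb, 60.1% with the wider 50%, 60.9% with equal numbers and, as an alternative chosen after seeing the data, 60.8% without the chromosome 6 segment. As a share of the shMBD3.26 length these were 79.2%, 75.5%, 77.7% and 77.1%. Of the shMBD3.232 length, 73.3% was shared with peaks over 2 kb, 74.7% with the wider 50%, 73.9% with equal numbers and 74.4% with chromosomes X and Y. The median log2 ratio of width was 0.070 with peaks over 2 kb and 0.11 with the wider 50%. Of the 47 values computed under an alternative, 28 moved beyond the counting interval, 1.5 times the count or, for the gradient over windows, a log2 change of 0.05, and 19 did not. The gradient over windows kept its direction with peaks over 2 kb and with equal numbers (log2 ratios of -0.38 and 0.17 in the outer deciles for the latter). Counting intervals treat regions or grid steps as independent, which they are not.

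No paired analysis was possible because each shRNA has 1 library. The TSS alternatives were not run, since they need a GRCh37 annotation. The depth behind each list is unknown, so narrow peaks of 1 list alone cannot be told apart from peaks just below the threshold of the other.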
